A study of Mus musculus with 10 samples.

Results

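Oxidative phosphorylation subunits were examined as the 94 genes whose symbol starts with Nduf, Sdh, Uqcr, Cox4, Cox5, Cox6, Cox7, Cox8 or Atp5, out of 18193 genes that a probe set with a single symbol represents on the array. They comprise 44 genes assigned by prefix to complex I, 8 to complex II, 8 to complex III, 17 to complex IV and 17 to complex V. By role, 12 are assembly factors, 8 are isoforms restricted to certain tissues or conditions, and 74 are other genes, nearly all of them structural subunits. One probe set represents each gene, the one with the highest mean log2 signal. After a filter on low signal, 93 members were among the 14840 genes tested; Ndufb4, an accessory subunit of complex I, was left out with deposited signals between 1.8 and 18.5.

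The arrays compared 5 mouse mammary tumour cell lines, with 2 arrays of each. Line E is epithelial and was established from a mammary adenocarcinoma that arose spontaneously in a female FVB/N-TgN(MMTVneu)202Mul mouse, which carries the neu oncogene under the mouse mammary tumour virus promoter. The mesenchymal lines, M1 to M4, were derived from relapsed tumours in female FVB/N mice that had received E cells by injection, so all 5 lines descend from the neu transgenic tumour. All were grown in RPMI medium with 10% serum. There is 1 epithelial line, and the labels do not give whether a line's 2 arrays represent separate cultures, so the p-values below measure only the spread between arrays, which may be technical.

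The respiratory chain sits in the inner mitochondrial membrane. Complex I oxidises NADH and complex II oxidises succinate, and both pass electrons through ubiquinone to complex III and then through cytochrome c to complex IV, which reduces oxygen. Complexes I, III and IV pump protons, and complex V, the ATP synthase, uses the returning protons to make ATP. All members measured here are encoded in the nucleus; the chain also needs subunits encoded in mitochondrial DNA, and dedicated assembly factors that are not part of the finished complexes.

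Nuclear genes of the chain are known to share promoter elements for the factor NRF1 and for ETS factors such as GABP. RefSeq promoter windows of the GRCm38.p6 assembly, from 250 bases before to 50 after the start, were found for 77 of the 93 members. The NRF1 element (GCGCA, then any base, then GCGC), searched with the other motifs on both strands, was in the windows of 18 of the 77 members (23.4%), against 5.19% of the 27025 genes in the table and 4.6% of its 32851 windows. The ETS core CCGGAAG was in those of 22 members (28.6%), against 9.93% of genes and 8.86% of windows. The core of the hypoxia response element, ACGTG, was in those of 20 members (26%), against 21.8% of genes and 19.6% of windows. None of these 3 motifs lies inside another. Base composition was not matched in these shares, and a match is a run of letters only. The NRF1 run was in the windows of 3 of 15 members that were higher in the M lines, of 10 of 44 that were lower and of 5 of 18 that did not pass. The ETS run was in those of 3 of 15 higher and 16 of 44 lower members, and of 3 of 18 that did not pass. The ACGTG run was in those of 6 of 15 higher and 11 of 44 lower members, and of 3 of 18 that did not pass.

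The windows of these genes are shown because the genes moved in different ways. Atp5c1 (chr2:10080383-10080682, minus strand), the gamma subunit of ATP synthase, was lower in every M line. Ndufaf4 (chr4:24897833-24898132, plus strand), an assembly factor of complex I, was higher in every M line. Both windows hold the NRF1 run, printed in capitals. Cox7b2 (chr5:71548156-71548455, minus strand), an isoform best known from testis, was high in a single line, and its window holds none of the 3 motifs.
Atp5c1: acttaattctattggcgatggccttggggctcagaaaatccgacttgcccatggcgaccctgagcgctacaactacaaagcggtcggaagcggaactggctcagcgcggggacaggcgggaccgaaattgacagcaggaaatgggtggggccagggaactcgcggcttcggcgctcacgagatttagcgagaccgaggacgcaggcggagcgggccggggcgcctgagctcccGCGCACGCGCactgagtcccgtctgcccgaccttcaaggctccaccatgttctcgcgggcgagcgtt
Ndufaf4: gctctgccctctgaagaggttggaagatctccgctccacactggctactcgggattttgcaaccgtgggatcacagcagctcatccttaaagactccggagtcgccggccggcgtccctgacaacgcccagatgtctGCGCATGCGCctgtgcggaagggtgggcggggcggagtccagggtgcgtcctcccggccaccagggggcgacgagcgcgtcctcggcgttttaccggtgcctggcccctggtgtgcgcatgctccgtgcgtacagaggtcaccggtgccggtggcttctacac
Cox7b2: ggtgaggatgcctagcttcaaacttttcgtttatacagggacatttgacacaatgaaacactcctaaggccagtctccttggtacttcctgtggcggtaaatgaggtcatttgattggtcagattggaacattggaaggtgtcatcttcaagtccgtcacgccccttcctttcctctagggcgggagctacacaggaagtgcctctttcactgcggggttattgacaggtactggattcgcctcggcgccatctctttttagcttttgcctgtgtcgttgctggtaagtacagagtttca

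Averaged over the 4 M lines and set against line E, more members were lower than higher. Of the 93 members, 50 were lower (53.8%) and 20 were higher (21.5%) at an adjusted p under 0.05 in limma, and 23 did not pass. Over all genes tested, 29.3% were lower and 31.4% were higher. The median residual SD was 0.05 for members and 0.12 for all genes, so smaller changes could pass among the members. With the filter at the 60th percentile, 37.9% of all genes were lower and 39.8% higher, against 50 lower and 21 higher members. The changes were mostly small: 5 members were at least 2-fold higher and 1 at least 2-fold lower, against 9.62% and 8.71% of all genes. The median log2 change was -0.13 for the members and 0.04 for all genes. All 8 M arrays lay below both E arrays for 29 members (background 20.8%) and above both for 10 (background 21.1%). In bulk RNA of a cell line, fewer cells that express a gene and less of its RNA per cell cannot be told apart.

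The count of lower members depends on how the arrays were scaled. With quantile normalization it was 50 lower and 20 higher; with the deposited scaling it was 63 and 9, with median centring 30 and 31, and with scaling to the hybridization controls 29 and 22. The median of all genes moved too, to -0.20, 0.19 and 0.02 in that order. Relative to it, the members' median was -0.18 with quantile normalization, -0.17 with the deposited scaling, -0.17 with median centring and -0.07 with the control scaling. Under all 4 scalings, 28 members passed as lower (30.1%) and 9 as higher (9.68%), against 26.4% and 17.4% of all genes. The 9 were Cox6a2, Cox7b2, Ndufa4l2, Ndufa7, Ndufaf4, Ndufaf6, Ndufb6, Ndufb9 and Sdhb. Cox7b2 was among the genes tested only through its M4 arrays. Atp5a1, Atp5d, Atp5g3, Atp5pb, Cox6b1, Cox7a2, Cox7a2l, Ndufs1, Ndufv1, Sdhaf2 and Sdhaf4, described below as changed, had the same sign under all 4 scalings. They did not pass under each. Some changes were very small, such as -0.001 for Atp5pb with median centring and 0.025 for Atp5g3 with the deposited scaling. Atp5h changed sign with median centring (0.017), Cox6a1 with median centring (0.125) and the control scaling (0.081), and Cox6c with the deposited scaling (-0.102). When each line was reduced to 1 mean, so that the 4 M lines themselves supplied the error, only Ndufb6 passed as higher (adjusted p = 0.0282) and only Atp5e as lower (adjusted p = 0.0462), against 4.7% and 5.96% of all genes.

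**Figure D1:**
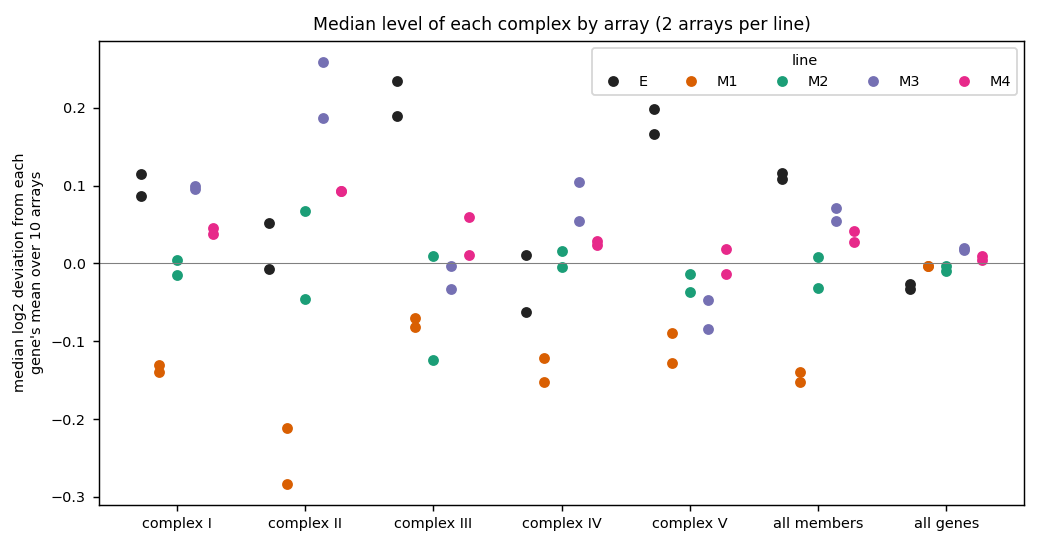
Median over the members of each complex of the log2 signal relative to each gene's mean over the 10 arrays, after quantile normalization, with all members and all genes at the right; each point is an array, coloured by line. The median of all members was 0.12 and 0.11 on the E arrays and -0.15 and -0.14 on the M1 arrays, and between -0.03 and 0.07 on the other 6.

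After quantile normalization nearly all ATP synthase members were lower. Of its 17 members 15 were lower in the mean contrast (88.2%, against 29.3% of all genes) and 1 was higher (5.88%, against 31.4%). The other 1 did not pass, and the median log2 change was -0.22. Under all 4 scalings 6 passed as lower (35.3%, against 26.4% of all genes): Atp5c1, Atp5e, Atp5j, Atp5k, Atp5md and Atp5o. These calls are for the mean contrast: Atp5k did not pass in M4 (0.006, adjusted p = 0.921), nor Atp5md in M2 (0.057, adjusted p = 0.614). Relative to the median of all genes, the complex V median was -0.26 in 3 of the scalings and -0.14 with the control scaling. Against line E, the complex V median was -0.39 for M1, -0.17 for M2, -0.26 for M3 and -0.21 for M4; these values share the E arrays.

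The 4 complex V members with the largest falls were Atp5e, Atp5c1, Atp5j and Atp5o, all subunits of the stalks that join the catalytic head to the membrane part. Other stalk subunits fell by less, Atp5d (delta, central stalk) by 0.29, Atp5pb (b, peripheral stalk) by 0.22 and Atp5h (d, peripheral stalk) by 0.19. Atp5e encodes the epsilon subunit of the central stalk. Its normalized signal was 4370 and 4636 in E, 1709 and 1851 in M1, 2116 and 2184 in M2, 2417 and 2315 in M3, and 2395 and 2369 in M4. No M array came near the E arrays, and the log2 change was -1.05 (SE 0.04, adjusted p = 6.82e-11), the largest fall of any member. Atp5c1 encodes the gamma subunit, the rotating shaft. Its signal was 13190 and 13090 in E, 6297 and 6006 in M1, 7553 and 7476 in M2, 5613 and 5223 in M3, and 8500 and 8390 in M4. All M arrays were well below E, with a log2 change of -0.95 (SE 0.03, adjusted p = 1.67e-11). The probe sets of both genes are of a type that can also bind other transcripts; the other kept probe set of Atp5c1 read at most 53.02 on any array and gave -0.25 (adjusted p = 0.12).

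Atp5o encodes the oligomycin sensitivity protein at the top of the peripheral stalk. Its signal was 6252 and 5862 in E, 3675 and 3820 in M1, 3212 and 3358 in M2, 2451 and 2787 in M3, and 3496 and 3320 in M4. The M arrays were all lower, M3 lowest, and the log2 change was -0.90 (SE 0.05, adjusted p = 1.74e-09); its other probe set gave -0.78. Atp5j encodes coupling factor 6, also of the peripheral stalk, with a signal of 5255 and 5055 in E, 3600 and 3369 in M1, 2695 and 2604 in M2, 2340 and 1949 in M3, and 2667 and 2871 in M4. E and M did not overlap here either, and the log2 change was -0.92 (SE 0.06, adjusted p = 1.03e-08).

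The catalytic head is formed by the alpha and beta subunits. Atp5a1, the alpha subunit, fell by 0.30 on the log2 scale (SE 0.03), from 7799 and 7955 in E to between 5772 and 6749 on the M arrays. Atp5b, the beta subunit that carries the catalytic sites, fell by 0.13 (SE 0.03), from 9930 and 9692 to between 8187 and 9454; its change was 0.11 with median centring and 0.06 with the control scaling, so its direction is not settled. Atp5j2, the f subunit of the membrane part, read 4778 on both M1 arrays against 7053 on both E arrays, and between 6545 and 7303 on the others. Its mean fall was 0.16 (adjusted p = 0.000238), with -0.56 in M1, -0.10 in M2 (adjusted p = 0.0323) and values in M3 and M4 that did not pass. A second bright probe set of Atp5j2 read 7394 and 6794 in E and 4553 to 6702 on the M arrays, all below E, and gave -0.32 (adjusted p = 7.33e-05). With the probe set used, the change was 0.04 with median centring and 0 with the control scaling. Atp5g3, 1 of 3 genes that encode the same mature c subunit of the rotor ring, was the complex V member that rose, by 0.22 (SE 0.03), with 10860 and 10460 in M4 against 7234 and 7317 in E; M3, at 7149 and 7133, was not above E.

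**Figure D2:**
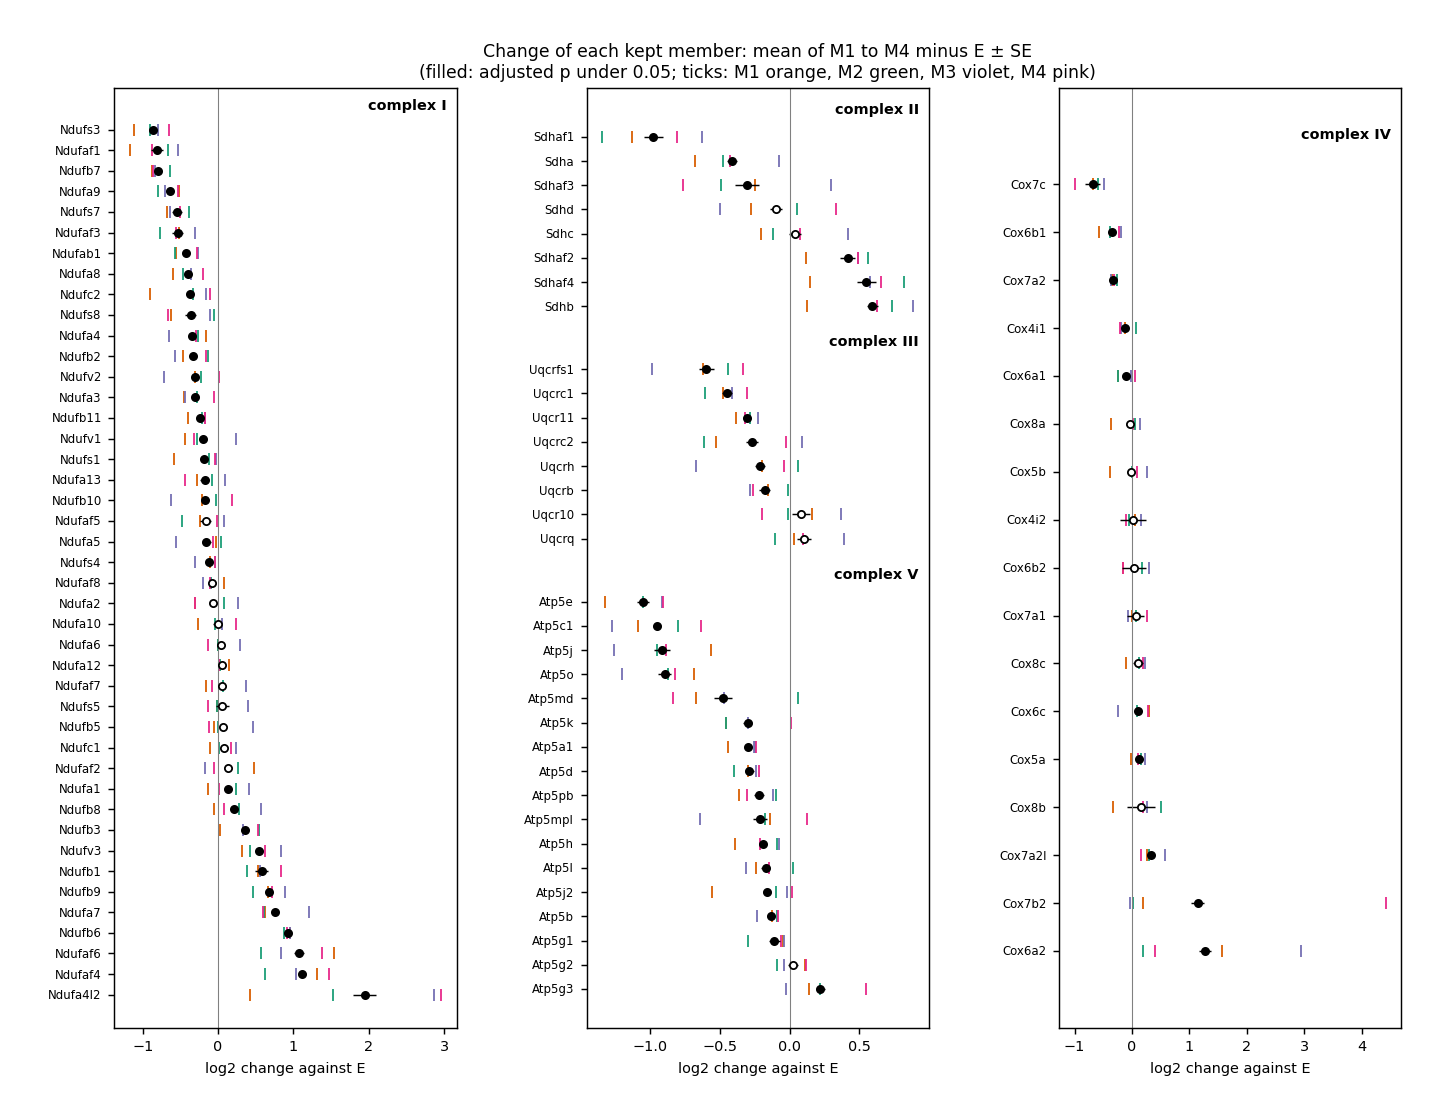
Log2 change of each of the 93 members against E, grouped by complex; circles are the mean of M1 to M4 with its standard error from limma after quantile normalization, filled where the adjusted p was under 0.05, and coloured ticks are the single M lines. In complex V 15 of 17 members (88.2%, against 29.3% of all genes) are filled and below 0, while complexes I, II and IV spread to both sides.

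After quantile normalization no member of complex III rose in the mean contrast. Of its 8 members 6 were lower (75%, against 29.3% of all genes) and 2 did not pass, with a median log2 change of -0.24. Under all 4 scalings 4 passed as lower (50%, against 26.4% of all genes): Uqcr11, Uqcrc1, Uqcrc2 and Uqcrfs1. Among the single lines, Uqcrc2 did not pass in M3 (0.09, adjusted p = 0.174) or M4 (-0.023, adjusted p = 0.749). Uqcrfs1, the Rieske iron-sulfur protein, read 3671 and 4452 in E, 2695 and 2539 in M1, 2920 and 3027 in M2, 2051 and 1986 in M3, and 3126 and 3263 in M4. All M arrays were lower, those of M3 most, with a log2 change of -0.60 (SE 0.06, adjusted p = 8.03e-07). Uqcrc1, a core protein on the matrix side, read 4079 and 4312 in E, 2922 and 3082 in M1, 2675 and 2808 in M2, 3154 and 3129 in M3, and 3387 and 3376 in M4. Again no M array reached E, and the log2 change was -0.45 (SE 0.04, adjusted p = 1.16e-07). Uqcr11, a small accessory subunit, fell by 0.31 (SE 0.03), and Uqcr10 and Uqcrq, also small accessory subunits, had mean changes of 0.08 and 0.10 that did not pass. Both rose in M3, by 0.37 (adjusted p = 0.00108) and 0.39 (adjusted p = 9.83e-05), and Uqcr10 fell in M4 by 0.20 (adjusted p = 0.048). Cyc1, the cytochrome c1 of this complex, lies outside the prefixes and had a log2 change of 0.10 (adjusted p = 0.0469).

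Complex I held both the falls and the rises. Of 43 members tested 21 were lower (48.8%, against 29.3% of all genes) and 11 were higher (25.6%, against 31.4%). The other 11 did not pass, and the median log2 change was -0.12. Under all 4 scalings 14 passed as lower (32.6%, against 26.4% of all genes) and 6 as higher (14%, against 17.4%). All 6 nuclear core subunits that were tested, the conserved catalytic part of the matrix arm, were lower by the probe sets used, with a median of -0.34. The call differed between probe sets for some of them: none of the 5 other kept probe sets of Ndufs8 passed, with log2 changes between -0.11 and 0.13, nor did either other probe set of Ndufv1, at 0.05 and -0.04. Ndufs3, a core subunit, read 3228 and 3464 in E, 1528 and 1522 in M1, 1675 and 1868 in M2, 1849 and 1958 in M3, and 2110 and 2138 in M4. E stood clearly above every M array, and the log2 change was -0.87 (SE 0.05, adjusted p = 1.84e-09). Ndufs1, the largest iron-sulfur subunit, fell by 0.19 (SE 0.04) with most of the difference in M1, at 991.8 and 1044 against 1498 and 1573 in E, and M3 overlapped E. Ndufv1, which binds the flavin and oxidises NADH, fell by 0.20 (SE 0.04) in the mean, but it was higher in M3, at 3178 and 3063, than in E, at 2649 and 2621.

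Among the accessory subunits, Ndufb7 fell and Ndufb6 rose, each in all 4 M lines. Ndufb7 read 4085 and 3891 in E, 2162 and 2159 in M1, 2610 and 2515 in M2, 2328 and 2130 in M3, and 2194 and 2160 in M4. The M arrays lay far below E, those of M2 least so, with a log2 change of -0.80 (SE 0.04, adjusted p = 9.41e-10), and a second probe set gave -0.81. The M lines differed among themselves (adjusted p of the F test = 0.00231). Ndufb6, named after its values were seen, read 1828 and 1728 in E, 3375 and 3548 in M1, 3405 and 3194 in M2, 3426 and 3512 in M3, and 3488 and 3253 in M4. Every M array was far above E, and the log2 change was 0.92 (SE 0.04, adjusted p = 3.12e-10). By this probe set its changes in the single lines lay between 0.88 and 0.95, and the F test across the M lines did not pass (adjusted p = 0.542). A second probe set of Ndufb6 gave a mean change of 0.76 and did differ across the M lines (adjusted p = 1.01e-05), with 2271 and 2454 in M2 against 2980 to 3337 in the others.

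Ndufa7, another accessory subunit, read 2182 and 2184 in E, 3297 and 3433 in M1, 3209 and 3491 in M2, 5094 and 5091 in M3, and 3364 and 3272 in M4. It was higher in all M lines and highest in M3, with a mean log2 change of 0.76 (SE 0.04, adjusted p = 7.21e-10). Ndufb9, also named after its values were seen, rose by 0.68 (SE 0.03), from 3566 and 3771 in E to between 5001 and 6862 on the M arrays. Accessory subunits of the same complex lay on both sides of E by amounts many times their standard errors, which reflect only the spread between arrays of a line. In the fit on 1 mean per line Ndufb6 passed, but Ndufb7 (adjusted p = 0.0695), Ndufb9 (adjusted p = 0.111) and Ndufa7 (adjusted p = 0.192) did not.

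The assembly factors of complex I also split. Ndufaf4 read 405.4 and 442.8 in E, 1099 and 1111 in M1, 648 and 690.4 in M2, 911.5 and 895.8 in M3, and 1191 and 1282 in M4. All M arrays were higher, M4 most and M2 least, with a log2 change of 1.11 (SE 0.05, adjusted p = 4.1e-10); a second probe set gave 0.73. Ndufaf6 read 116.3 and 124.5 in E, 425.1 and 395.1 in M1, 193.5 and 192.9 in M2, 242.5 and 236 in M3, and 349.4 and 377 in M4. It too was above E on every M array, with a log2 change of 1.08 (SE 0.07, adjusted p = 1.07e-08). Ndufaf1, in contrast, fell by 0.81 (SE 0.08), from 313 and 337.3 in E to between 125.6 and 226.3. Of the 8 complex I assembly factors under the prefixes, 2 were higher, 2 were lower and 4 did not pass. Neither share exceeded that of all genes (31.4% higher, 29.3% lower).

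**Figure D3:**
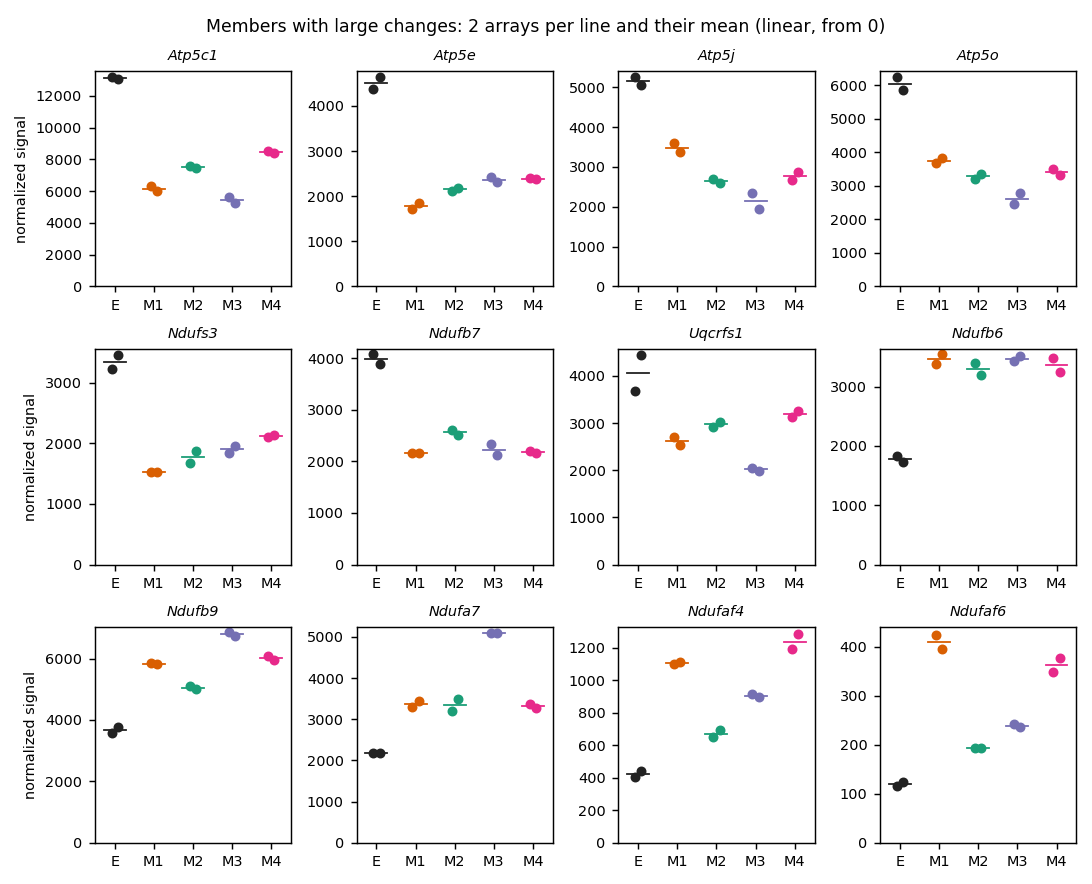
Normalized signal (linear axis from 0) on each of the 10 arrays for 12 members with large changes in the contrast of M lines with E; points are arrays and bars are the mean of a line. For Atp5e, Atp5c1, Atp5o, Atp5j, Ndufs3, Ndufb7 and Uqcrfs1 all M arrays lie below both E arrays, and for Ndufb6, Ndufb9, Ndufa7, Ndufaf4 and Ndufaf6 all lie above.

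Of the 8 members of complex II, succinate dehydrogenase, 3 were higher, 3 lower and 2 did not pass. These shares, 37.5% each way, lie near those of all genes (31.4% higher, 29.3% lower). Sdhb, the iron-sulfur subunit, read 2092 and 2250 in E, 2390 and 2346 in M1, 3441 and 3841 in M2, 4097 and 3986 in M3, and 3418 and 3330 in M4. M1 was barely above E and the other lines were clearly above it, with a mean log2 change of 0.59 (SE 0.04, adjusted p = 5.05e-08). Sdha, the flavoprotein that oxidises succinate, read 2770 and 2661 in E, 1683 and 1690 in M1, 1944 and 1934 in M2, 2608 and 2531 in M3, and 1941 and 2087 in M4. M1, M2 and M4 were well below E and M3 was just below it, and the mean log2 change was -0.41 (SE 0.04, adjusted p = 4.77e-07). A second probe set of Sdha, with signals of 937.8 to 1223, gave -0.05 (adjusted p = 0.387), so the fall was not seen by every probe set.

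The membrane anchors Sdhc and Sdhd differed among the M lines more than between M and E. Sdhc read 2230 and 2377 in E, 1949 and 2034 in M1, 2009 and 2229 in M2, 3076 and 3090 in M3, and 2384 and 2464 in M4. Sdhd read 1835 and 1872 in E, 1530 and 1521 in M1, 1819 and 2039 in M2, 1287 and 1319 in M3, and 2324 and 2349 in M4. M3 thus had the highest Sdhc and the lowest Sdhd signal of the 5 lines. Neither passed in the mean contrast, with log2 changes of 0.04 (adjusted p = 0.448) and -0.10 (adjusted p = 0.0678), while the F tests across the M lines gave adjusted p = 2.2e-06 and 1.44e-07.

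The 4 complex II assembly factors all passed, 2 as lower and 2 as higher, against 29.3% lower and 31.4% higher among all genes. Sdhaf1, needed for iron-sulfur insertion into Sdhb, fell by 0.98 (SE 0.07, adjusted p = 3.43e-08), from 716.1 and 869.2 in E to between 286.8 and 505.5. Sdhaf3 fell by 0.30 (SE 0.09) in the mean, though M3, at 381.2 and 331.5, was above E, at 266.2 and 303.3. Sdhaf2, which helps to attach the flavin to Sdha, rose by 0.42 (SE 0.05), and Sdhaf4 rose by 0.55 (SE 0.07). In M1 neither passed, Sdhaf2 at 0.12 (adjusted p = 0.161) and Sdhaf4 at 0.145 (adjusted p = 0.171). Sdhaf4 overlapped E, with 516.9 on an M1 array against 523.2 on an E array.

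**Figure D4:**
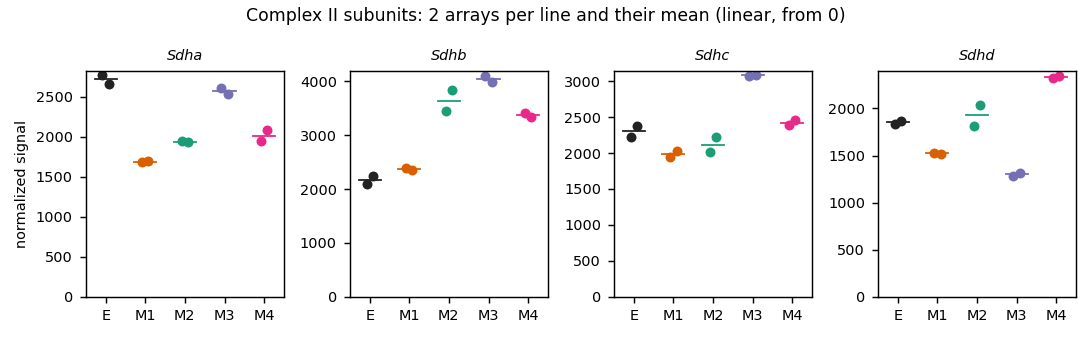
Normalized signal (linear axis from 0) of the 4 subunits of complex II on each array; points are arrays and bars are the mean of a line. Sdhb is highest on the M3 arrays (4097 and 3986), Sdha is lowest on the M1 arrays (1683 and 1690), and Sdhd is highest on the M4 arrays (2324 and 2349).

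Without the restricted isoforms, 10 members of complex IV, cytochrome oxidase, were tested. Of these 5 were lower (50%) and 3 higher (30%), against 29.3% and 31.4% of all genes. The other 2 did not pass, and the median was -0.08. With the isoforms 5 of 17 were lower and 5 higher (29.4% each), near the shares of all genes, and 7 did not pass. Under all 4 scalings 1 of the 17 passed as lower (5.88%, against 26.4% of all genes) and 2 as higher (11.8%, against 17.4%). Cox4i1, a landmark subunit, read 8235 and 9225 in E and between 7466 and 9253 on the M arrays, a fall of 0.12 (adjusted p = 0.0159) whose sign turned to a higher level in M, by 0.08 with median centring and 0.04 with the control scaling. Cox5a rose by 0.12 (adjusted p = 0.00539) but had a change of -0.05 with the deposited scaling. Cox6b1 fell by 0.34 (SE 0.03), from 9827 and 10030 in E to between 6662 and 8730, and Cox7a2 fell by 0.33 (SE 0.03), from 10480 and 10650 to between 8044 and 8822. Probe sets differed in size for Cox6c, which rose by 0.11 with the probe set used and by 0.80 (adjusted p = 9.73e-10) with its other one, and for Cox6a1, which fell by 0.11 and by 0.44 (adjusted p = 1.65e-07). Cox7c fell by 0.69 (SE 0.13), but its probe set was dim, at 109.4 and 113.3 in E and between 27.91 and 70.26 on the M arrays. Cox7a2l, which helps to join complexes III and IV into supercomplexes, rose by 0.32 (SE 0.05), with 2559 and 2947 in E and between 2997 and 4195 on the M arrays.

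Of the 8 restricted isoforms 3 rose (37.5%, against 31.4% of all genes), and each was high in a different set of lines. Ndufa4l2 is the relative of Ndufa4 that is known to be induced in low oxygen; Ndufa4 itself, counted in complex I by its prefix, is known to sit with complex IV. The signal of Ndufa4l2 was 5.63 and 19.67 in E, 16.66 and 39.85 in M1, 98.76 and 91.93 in M2, 282.2 and 295.4 in M3, and 289.7 and 334.2 in M4. M1 overlapped E, M2 was higher, and M3 and M4 were far higher. The log2 changes on the log2(signal + 32) scale were 0.42, 1.53, 2.86 and 2.96 in M1 to M4, with a mean of 1.94 (SE 0.15, adjusted p = 8.1e-08).

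Cox6a2 encodes the isoform of subunit 6a found in heart and skeletal muscle. Its signal was 36.39 and 28.25 in E, 156.5 and 158.2 in M1, 35.26 and 47.41 in M2, 467.4 and 460 in M3, and 52.17 and 53.12 in M4. M3 and M1 stood apart from the rest, while M2 overlapped E. The log2 changes were 1.56, 0.19, 2.95 and 0.40 in M1 to M4, with a mean of 1.27 (SE 0.10, adjusted p = 8.75e-08). A second, dimmer probe set had its highest signal, 67.74, on an M3 array and did not pass in the mean (log2 change 0.27, adjusted p = 0.314). Of 6 muscle markers 5 were tested, of which 3 were higher and 2 lower in the mean contrast. Ckm, muscle creatine kinase, was at most 45.5 on any array, Myh6 was at most 7.91, and Acta1, skeletal actin, read 27.4 and 54.9 in M3 and 169 and 153 in M1, against 48.8 and 45.5 in E. The tested list summed to between 116.1 and 424.5 on the M arrays and 4491 to 4725 in E, where Tnnt2 read 4630 and 4400. The part of these markers in the Cox6a2 result was not tested.

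Cox7b2 was high in a single line. Its signal was 2.56 and 0.8 in E, 5.3 and 7.8 in M1, 2.84 and 1.17 in M2, 1.04 and 0.46 in M3, and 676.1 and 705.5 in M4. Every array outside M4 was near the bottom of the scale. Cox7b2 passed the filter on low signal only through the M4 arrays, so its p-values are no support for a rise in M4. The log2 change was 4.42 in M4 and between -0.04 and 0.20 in the other lines. Its mean of 1.15 (adjusted p = 1.14e-06) rested on M4, since without M4 it was 0.06 (adjusted p = 0.767). The other 5 restricted isoforms did not pass with the probe sets used: Cox4i2, Cox6b2, Cox7a1 and Cox8b stayed at or below 41.98 on every array, and Cox8c lay between 104.1 and 156.6. A dimmer probe set of Cox8c, at most 84.96 on any array, passed as higher (0.51, adjusted p = 0.0333). Because the isoforms are dim in E, their log2 changes depend on the constant of 32 and understate the ratio of the signals.

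**Figure D5:**
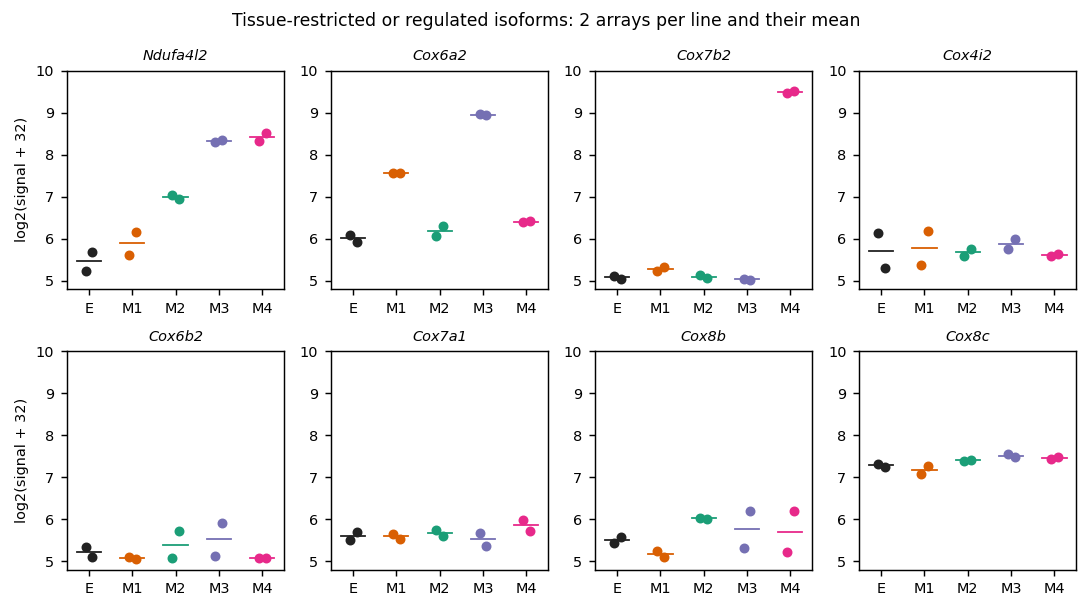
Log2 of the normalized signal plus 32 of the 8 restricted isoforms on each array; points are arrays and bars are the mean of a line. In normalized signal, Ndufa4l2 is highest in M3 and M4 (282.2 to 334.2), Cox6a2 in M3 (467.4 and 460), and Cox7b2 in M4 (676.1 and 705.5), while the other 5 show no line that stands apart.

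The M lines differed among themselves in most members, though usually by little. In the F test across M1 to M4, 84 of the 93 members passed (90.3%), against 63.9% of all genes. Only 4 of them, Cox6a2, Cox7b2, Ndufa4l2 and Sdhaf3, were also at least 2-fold apart between the highest and lowest line, against 18.1% of all genes. The median residual SD between arrays of a line was 0.05 for members and 0.12 for all genes on the log2 scale, so smaller differences could pass among the members.

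After quantile normalization, M1 had the lowest signal of the 4 lines for 38 members (40.9%, against 26.1% of all genes). M3 had the highest for 40 (43%, against 31.7%). In the deposited signals the members' median was 3120 and 3036 on the M1 arrays. It was lower on the M3 arrays (2545 and 2513) and the M4 arrays (2251 and 2464), so the order of the lines depends on the scaling. Against E, with the E arrays shared by all 4 comparisons, M1 had 53 members lower and 14 higher (27.3% and 28.5% of all genes), M2 38 and 18 (27.2% and 28%), M3 43 and 30 (28.2% and 31.6%) and M4 40 and 23 (27.7% and 29.5%). Ndufc2, a membrane-arm subunit of complex I, shows the M1 pattern, with 2837 and 3071 in M1 against 5568 and 5520 in E and between 4391 and 5202 in the other M lines. Ndufv2, an iron-sulfur core subunit, was instead lowest in M3, at 2504 and 2522, against 4148 and 4176 in E and 4129 and 4255 in M4. The ratio of 3' to 5' signal is a measure of RNA integrity. For Actb it was 1.16 on both M1 arrays and 1.29 and 1.38 on the M3 arrays. For Gapdh it went the other way, at 0.842 and 0.853 on the M1 arrays and 0.79 and 0.768 on the M3 arrays. The part of RNA integrity in these differences was not tested.

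Related mitochondrial lists had members that passed in both directions in the mean contrast, to be read against 31.4% higher and 29.3% lower among all genes; the shares in several lists were near these. Of 17 pyruvate dehydrogenase and citrate cycle genes tested, 10 were lower and 3 higher, with a median log2 change of -0.14. Pcx, pyruvate carboxylase, fell by 1.58 and Idh3a, a subunit of isocitrate dehydrogenase, by 1.11, while Suclg2, a subunit of succinyl-CoA ligase, rose by 0.74. Among 32 assembly factors outside the prefixes, 11 were lower and 9 higher, with a median of -0.03; Surf1, for complex IV, fell by 0.90, and Sco2, which delivers copper to complex IV, rose by 1.75. Of 76 mitochondrial ribosomal protein genes 31 were higher and 24 lower, with a median of 0.04, and of 22 import genes 9 were higher and 10 lower, with a median of -0.12. Of 13 carriers and porins 2 were higher and 6 lower, with a median of -0.07. Of 20 regulators of mitochondrial biogenesis and DNA 5 were higher and 5 lower, with a median of -0.03; Ppargc1b, a coactivator of this programme, fell by 1.29, and Polg2, a subunit of the mitochondrial DNA polymerase, rose by 0.73. Atpif1, which inhibits ATP hydrolysis by complex V, rose by 0.41 (adjusted p = 1.55e-06).

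The arrays of a line correlated with r between 0.992 and 0.993, and arrays of different lines with r between 0.873 and 0.976. The deposited signals were on unequal scales, with array medians between 22.7 and 35.7, highest in E. The epithelial marker Cdh1 read 3160 and 2910 in E and at most 89.5 in the M lines, as the line labels describe. Of the members tested, 17 were read by probe sets that can bind more than 1 transcript, and RefSeq lists 19 pseudogenes under these prefixes. Of the 52 members with several kept probe sets, 33 had the same call from all of them, 17 passed with some only, and Cox5b and Ndufa3 passed in opposite directions. The lower call of Cox5b came from a dim probe set, at 7.06 to 43.86. For Ndufa3 the higher call came from a dim probe set, at 28.57 to 74.36.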

How the data were processed

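Total RNA of 5 cell lines was hybridised to 1-colour oligonucleotide arrays, 2 per line. The deposited values are linear intensity values per probe set that the authors made with GCOS 1.3, per the submitters' processing notes; the scaling and other upstream settings were not given in the sources used here. Arrays give no read depth, and their number limits the precision.

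Of 45101 probe sets, 64 controls were left out. Intensities were quantile normalized, and the log2 of the normalized value plus 32 was taken. Probe sets were kept where 2 or more arrays had them above that array's 40th percentile, 1 per gene, by the highest mean log2 signal. The filter and the choice of probe set used the deposited intensities. limma 3.58.1 in R 4.3.3 fitted 1 mean per line to all 10 arrays, with a trended prior, and gave the mean of M1 to M4 against E, each M line against E and a moderated F test across M1 to M4. p-values were adjusted by Benjamini-Hochberg over 14840 genes, two-sided, and passed under 0.05. The fit was tested on simulated data.

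Replicate numbers did not pair the arrays: the 10 correlations of deviations between same-numbered arrays lay between -0.03 and 0.026. Alternatives were other scalings, constants, filters, probe set rules, a replicate block, arrays or lines left out, and line means. Genes were named by rule: landmark subunits and isoforms, up to 3 largest rises and falls per complex, members at least 2-fold changed, the 6 smallest F test p-values, and up to 2 rises and falls per list. The members and lists were chosen with earlier results of these data known.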

Additional observations from a re-analysis of the deposited data

Results flagged for a closer look

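Effects of the 4 M lines against the same E arrays were compared by the F test across M1 to M4, in which 84 members differed. Of these, 4 were also at least 2-fold apart between lines, a condition added after the data were seen. Cox7b2 was high in M4 only among the 5 lines (adjusted p = 7.24e-11), Cox6a2 in M3 and M1 (adjusted p = 2.68e-09), Ndufa4l2 in M2, M3 and M4 (adjusted p = 2.1e-07), and Sdhaf3 was higher in M3 than in the other M lines (adjusted p = 1.41e-05). Cox7b2 passed the filter on low signal only through its M4 arrays, so its p-value is no support for a rise there. With 2 arrays per line, single arrays could not be examined as outliers.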

How the results depend on the processing

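Array scaling moved many of the counts and medians. With the deposited scaling 9 members were higher in the mean contrast, and 7, 8, 8 and 7 in M1 to M4; 72 were lower in M4. The median log2 changes were then -0.454, -0.346, -0.502, -0.168 and -0.469 for complexes I to V and -0.375 for all members. With median centring 31 were higher and 30 lower in the mean, 28 higher and 31 lower in M1, and 25 lower in M4, with medians of -0.061, 0.046, -0.11, 0.225 and -0.076 for complexes I to V and 0.017 for all. With scaling to the hybridization controls 29 were lower in the mean, 24 in M2 and 21 in M4, with medians of -0.155 for complex III, 0.078 for IV, -0.122 for V and -0.046 for all. Cox5a (-0.053) and Sdhc (-0.273) reversed with the deposited scaling; Atp5b (0.105), Atp5j2 (0.044) and Cox4i1 (0.084) with median centring; and Atp5b (0.061), Atp5j2 (0) and Cox4i1 (0.04) with the control scaling. Atp5h (0.017) and Cox6a1 (0.125) also changed sign with median centring, Cox6a1 (0.081) with the control scaling and Cox6c (-0.102) with the deposited scaling. These alternatives differ in how each array is scaled, and the cause beyond that was not tested.

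Other settings moved some medians, and the fit on line means moved the counts furthest. The complex IV median was 0.107 with a constant of 8, 0 with values below 64 set to 64, and -0.01 with the filter at the 60th percentile, where that of all members was -0.165. With the mean of a gene's probe sets the medians were -0.067 for complex I, 0.054 for II, -0.291 for III and -0.288 for V, and without the less specific probe sets that of complex I was -0.138. Without M1 the medians were 0.042 for complex II and 0.088 for IV. Without M2 they were -0.251 for V and -0.154 for all. Without M3 they were -0.059 for I, -0.032 for IV, -0.252 for V and -0.099 for all. Without M4 they were -0.088 for I, -0.31 for V and -0.152 for all. On 5 line means 1 member was higher and 1 lower, with fewer degrees of freedom.

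Leaving out each array in turn gave 19 to 21 members higher and 44 to 51 lower in the mean contrast, 11 to 17 higher and 45 to 53 lower in M1, 17 to 21 and 34 to 40 in M2, 28 to 30 and 38 to 43 in M3, 18 to 22 and 33 to 41 in M4, and 82 to 86 differing across the M lines. Medians ranged from -0.133 to -0.111 for complex I, -0.058 to 0.002 for II, -0.284 to -0.231 for III, -0.035 to 0.084 for IV, -0.246 to -0.203 for V and -0.153 to -0.124 for all members. The replicate block gave 21 higher and 50 lower in the mean contrast.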

Other observations

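A probe set for ND5, a complex I subunit encoded in mitochondrial DNA, was picked out after the values were seen. It read 9160 and 8398 in E, 4712 and 4781 in M1, 7938 and 7275 in M2, 7785 and 7609 in M3, and 4361 and 4387 in M4. M1 and M4 were low and M2 and M3 were closer to E, with a mean log2 change of -0.57 (limma, adjusted p = 2.39e-08).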
